A study of Homo sapiens with 16 samples.

Results

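The SAGA-specific subunits are proteins of the SAGA coactivator complex that the related ATAC complex lacks. Their genes were taken by name: SUPT20H, SUPT3H, SUPT7L, TADA1, TAF5L, TAF6L, TADA2B, USP22, ATXN7 and ATXN7L3. All 10 were among the 12676 genes of the read count table, and all 10 were tested. The RNA-seq libraries came from H1299, an established human line of non-small cell lung cancer, after infection with lentivirus carrying a non-targeting control shRNA (shNT, 2 libraries) or an shRNA against YEATS2 (shYEATS2, 2 libraries). Both groups were exposed to virus for 48 h with polybrene at 8 µg/ml, and the pooled survivors were selected with puromycin at 2 µg/ml for 4 to 7 days by the labels. The study's methods give a shorter selection, of at most 4 days. No allele was engineered in either group. The shRNA is not named in the labels and is called shY2-1 in the study's text on its duplicate RNA-seq. The comparison is of 1 shRNA group with 1 control group. An effect of losing YEATS2 cannot be told apart here from other effects of the shRNA. The study also reports RNA-seq with another YEATS2 shRNA, which is not compared here. The study calls its duplicates independent biological replicates, but the labels do not say whether they came from separate infections, so p-values measure the spread between these libraries.

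SAGA and ATAC are large nuclear complexes that help RNA polymerase II start transcription. Both carry an acetyltransferase, KAT2A (GCN5) or KAT2B (PCAF), which acetylates histone H3 together with the adaptor proteins TADA3 and SGF29. SAGA adds a structural core built on histone-fold and WD40 proteins, the adaptor TADA2B, and a deubiquitinase module in which USP22, held by ATXN7 and activated by ATXN7L3 and ENY2, removes ubiquitin from histone H2B. ATAC uses the paralogous adaptor TADA2A and has subunits of its own, among them YEATS2, which reads acetylated histone H3. The comparison asks how the transcripts of the complex without YEATS2 stood when this ATAC subunit was depleted.

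YEATS2 itself had 4482 and 4104 scaled counts in the controls (shNT) and 665 and 673 after knockdown (shYEATS2). A scaled count is the read count divided by the library's TMM-adjusted size and multiplied by the mean adjusted size. The knockdown mean was 15.6% of the control mean (log2 fold change −2.68, SE 0.10, FDR = 0.000583, edgeR's quasi-likelihood test). In bulk RNA such as this, fewer cells expressing a gene and less of its RNA per cell cannot be told apart. Libraries held 34718921 to 39417787 counted reads, and the smallest read count of a member in any library was 458. KRT8, KRT18 and VIM, epithelial and mesenchymal markers known in this line, were counted with at least 9029 reads in every library. PTPRC, PECAM1, CD3E, ALB and SFTPC, markers of blood, vessel, liver and alveolar cells, were not listed in the table, which holds genes with more than 100 reads in at least 1 library.

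The promoters below are shown because they belong to members at either end of the range of fold changes. Each promoter runs from 250 bases before to 50 bases after the transcription start given by RefSeq (build GRCh38.p14, gene strand, 5′ to 3′). Capitals mark the GC box GGGCGG or the letters CCAAT on either strand. ATXN7 has several listed starts, so the promoter of ATXN7L3, the other member called higher, is printed beside that of TADA2B, the member with the most negative fold change.
ATXN7L3, chr17:44199835-44200134, minus strand: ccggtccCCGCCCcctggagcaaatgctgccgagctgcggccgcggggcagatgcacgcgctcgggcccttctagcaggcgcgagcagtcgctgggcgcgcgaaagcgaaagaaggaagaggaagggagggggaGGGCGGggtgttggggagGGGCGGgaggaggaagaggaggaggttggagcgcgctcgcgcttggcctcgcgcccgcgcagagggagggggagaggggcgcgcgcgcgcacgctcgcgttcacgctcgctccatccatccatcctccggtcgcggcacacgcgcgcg
TADA2B, chr4:7043122-7043421, plus strand: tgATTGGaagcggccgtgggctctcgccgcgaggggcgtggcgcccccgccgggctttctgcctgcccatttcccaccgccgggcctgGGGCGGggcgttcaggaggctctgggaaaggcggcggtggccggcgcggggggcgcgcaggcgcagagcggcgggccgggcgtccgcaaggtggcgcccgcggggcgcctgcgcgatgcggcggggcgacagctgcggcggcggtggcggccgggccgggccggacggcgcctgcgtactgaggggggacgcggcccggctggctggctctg

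The ATXN7L3 window held 3 GC boxes and no CCAAT, with a GC content of 73.7%. TADA2B had 1 GC box and 1 CCAAT in a window of 81.0% GC. All 10 members matched the promoter table, with 16 listed starts in total. ATXN7 alone has 6 of these starts, so shares of starts weigh this gene more than the others. A GC box was present at 10 of the 16 starts (62.5%) and in 8 of the 10 members. Among 35116 human promoters of the same length, 45.0% had one. That background is not limited to genes of the count table, so the shares below are not of like sets. CCAAT was present at 7 starts, against 34.6% of promoters, and TATAAA at 2 starts, both of ATXN7, against 11.5%. The letters CCGGAAG, the core recognised by ETS factors, occurred at 2 starts, against 10.3%. Median GC content was 69.8% at the member starts and 58.7% over all promoters. These matches are descriptions of the letters and say nothing of binding.

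A second set of sequences is shown because the words AAGTTCA and CAAGTTC were singled out in an earlier analysis of these same libraries. Of the 10 members, 7 (70.0%) carried at least 1 of the words in the sense strand of the 3′ UTR of the Ensembl canonical transcript, against 19.1% of 11390 table genes with a 3′ UTR. The members' UTRs were long, with a median of 2567 bases against 1382 bases for all genes. Among the 4728 genes with UTRs of 1163 to 3995 bases, the range of the 7 carriers, 22.4% carried a word. The UTRs of the members without a word, SUPT20H (360 bases), TADA1 (1057) and TAF6L (46), were shorter than this range. Because the carriers set the range, every member inside it has a word, and the 22.4% cannot be set against the 70.0%. The windows below (GRCh37, gene strand, 5′ to 3′) hold the word in capitals with the bases on each side, all within the 3′ UTR.
ATXN7, chr3:63985344-63985370, plus strand: gacactggatCAAGTTCAgccaccgaa
ATXN7L3, chr17:42270254-42270280, minus strand: gaccctgagcCAAGTTCtctggcactt
SUPT7L, chr2:27873899-27873925, minus strand: actttgcattAAGTTCAgagtacaata
SUPT3H, chr6:44795580-44795606, minus strand: tttgcccagtAAGTTCAtataaaacct
USP22, chr17:20904413-20904439, minus strand: cccatgtgacCAAGTTCtgctgtttgg
TAF5L, chr1:229728944-229728970, minus strand: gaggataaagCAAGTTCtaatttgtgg
TADA2B, chr4:7057676-7057702, plus strand: ccattgtacaAAGTTCAaggctaagag

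In ATXN7 the words overlap as one run of 8 bases. Carriers stood on both sides of zero, from a log2 fold change of −0.55 for TADA2B to 0.69 for ATXN7. SUPT20H, TADA1 and TAF6L carried neither word. No test was made of the words, because they had been chosen on these data.

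None of the 10 SAGA-specific subunits was called lower after YEATS2 knockdown and 2 (20%) were called higher, at an FDR under 0.01 over all genes. Of all genes tested, 12.5% were called lower and 12.9% higher, so the count of 2 lies near the background. Both called members, ATXN7 and ATXN7L3, belong to the deubiquitinase module. A member that was not called is not shown to be unchanged. Simulated counts held 200 changed genes, fewer than were called here. There the same test called 23 of 100 genes changed by 0.5 on the log2 scale, and 98 of 100 changed by 1. At an unadjusted p under 0.05 in the quasi-likelihood test, 2 of the 10 members were lower and 5 higher. Of the 12676 genes in the table, 3528 were lower and 3636 higher, and the difference in shares was not tested. The study names edgeR's exactTest, which was run here with TMM scaling, and its calls were not compared with the study's own. It called 2 members lower, and 2497 of the 12676 genes. DESeq2 called 1 member lower, and 2190 of all genes. Knockdown and control values did not overlap for 9 of the 10 members, 4 with both knockdown libraries below and 5 with both above, against 79.6% of all genes. The median log2 fold change was 0.12 for the members and −0.0019 for all genes. Without TMM scaling these medians became 0.24 and 0.12, the calls over all genes shifted from 1581 lower and 1630 higher to 1166 lower and 2363 higher, and 3 members were called higher.

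**Figure D1:**
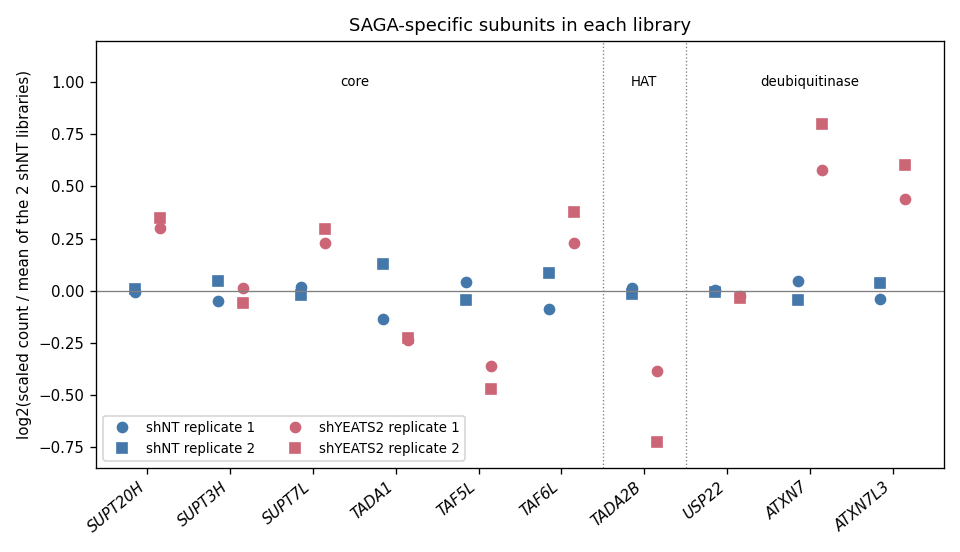
Log2 of the scaled count over the mean of the 2 shNT libraries (vertical axis) for each of the 10 SAGA-specific subunits (horizontal axis), 1 point per library, blue for shNT and red for shYEATS2, with the acetyltransferase module marked HAT. ATXN7 and ATXN7L3 lay higher in both shYEATS2 libraries, TADA2B and TAF5L lay lower, and the values of SUPT3H overlapped.

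The structural core of SAGA is represented by 6 members, of which none passed the threshold in either direction. SUPT20H (ENSG00000102710, chr13:37583449-37633850, minus strand, GRCh37 as for all gene positions here), a scaffold protein needed for assembly of the complex, had 2166 and 2188 scaled counts in shNT and 2685 and 2768 in shYEATS2. Both knockdown values lay above both controls, a mean increase of 25.3% (log2 fold change 0.32, 95% interval 0.11 to 0.54, FDR = 0.0243). With total counts in place of TMM the gene passed the threshold (0.44, FDR = 0.0075). The last exons of SUPT20H overlap those of EXOSC8, an exosome subunit gene on the opposite strand, over 925 of the 2923 bases of its canonical transcript. The kit named in the labels does not mark strand, so reads from such a pair cannot be told apart. EXOSC8, looked up for this overlap, fell (−0.52, SE 0.10, FDR = 0.0071).

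SUPT7L (ENSG00000119760, chr2:27873676-27886707, minus strand), a histone-fold partner of TAF10, had 1801 and 1753 scaled counts in shNT and 2084 and 2180.2 in shYEATS2. Knockdown values were above both controls without passing the threshold (0.26, interval 0.05 to 0.48, FDR = 0.0510). The exons of its canonical transcript overlap those of GPN1 over 703 bases and of SLC4A1AP over 189 bases. Both genes lie on the other strand, with fold changes of −0.05 and 0.06. SUPT3H (ENSG00000196284, chr6:44777054-45345690, minus strand), which carries a pair of histone folds, had 935 and 998 scaled counts in shNT and 974 and 927 in shYEATS2. It was the only member whose groups overlapped, and its interval ran from −0.28 to 0.23 around a fold change of −0.02 (FDR = 0.860).

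TADA1 (ENSG00000152382, chr1:166825747-166845501, minus strand), a histone-fold subunit that pairs with TAF12, had 575 and 689.95 scaled counts in shNT and 537 and 541 in shYEATS2. The difference was within its error (−0.23, interval −0.55 to 0.09, FDR = 0.190), and it depended on the second control, without which it was −0.09. TAF5L and TAF6L stand in SAGA where TFIID, the general factor that binds core promoters, has TAF5 and TAF6. TAF5L (ENSG00000135801, chr1:229728881-229761869, minus strand), a WD40 repeat protein, had 1115 and 1051 scaled counts in shNT and 842 and 779.8 in shYEATS2. The change of its mean was −25.1% and did not pass the threshold (−0.42, SE 0.11, interval −0.67 to −0.16, FDR = 0.0191), whereas exactTest called it lower (FDR = 0.0063). TAF6L (ENSG00000162227, chr11:62538829-62554814, plus strand), a histone-fold partner of TAF9, had 493 and 555 scaled counts in shNT and 614 and 679.9 in shYEATS2. Its values did not overlap, and it was not called (0.30, interval 0.0009 to 0.61, FDR = 0.0878).

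In the acetyltransferase module TADA2B (ENSG00000173011, chr4:7043626-7059679, plus strand) is the one SAGA-specific gene, and it encodes the adaptor that ties the acetyltransferase to SAGA. It had 1696 and 1661 scaled counts in shNT and 1284 and 1016 in shYEATS2. The controls lay close together, the knockdown libraries differed more from each other, and both were below the controls. TADA2B had the most negative fold change of the 10 members (−0.55, SE 0.13, interval −0.86 to −0.23), a change of the mean of −31.5%. In the quasi-likelihood test its FDR was 0.0146 and it was not called. Calls changed with the test: exactTest (FDR = 0.0012) and DESeq2 (FDR = 0.0025) called it lower, as did the quasi-likelihood fit without shYEATS2 replicate 1 (−0.72, FDR = 0.0025). Of all 12676 genes, 1979 (15.6%) had a fold change at least as negative.

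The deubiquitinase module held the largest rise among the members. ATXN7 (ENSG00000163635, chr3:63848831-63989138, plus strand), the subunit that anchors the module to SAGA and whose polyglutamine expansion underlies an inherited ataxia, had 852 and 799.5 scaled counts in shNT and 1233 and 1439 in shYEATS2. Both knockdown libraries were above both controls, and the mean was 61.8% higher (0.69, SE 0.12, interval 0.41 to 0.98, FDR = 0.0046). ATXN7L3 (ENSG00000087152, chr17:42269173-42277481, minus strand), a zinc finger protein needed for the activity of USP22, had 1897 and 2004 scaled counts in shNT and 2647 and 2962 in shYEATS2. Its mean was 43.8% higher (0.52, SE 0.10, interval 0.28 to 0.77, FDR = 0.0071). USP22 (ENSG00000124422, chr17:20902909-20947073, minus strand), the catalytic subunit, had 18867 and 18734 scaled counts in shNT and 18468 and 18375 in shYEATS2. The knockdown values were lower in both libraries by a small margin, and the interval of the difference was −0.24 to 0.18 around −0.03 (FDR = 0.799).

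ATXN7 and ATXN7L3 were called higher under each other test, scaling and filter tried, but not with every library left out. Without shNT replicate 1 the FDR was 0.0160 for ATXN7 and 0.0501 for ATXN7L3. Without shNT replicate 2 it was 0.0240 and 0.0264, and without shYEATS2 replicate 2 it was 0.0115 and 0.0192. Only without shYEATS2 replicate 1 did both pass, with FDR values of 0.0020 and 0.0040. The fold changes stayed between 0.58 and 0.80 for ATXN7 and between 0.44 and 0.60 for ATXN7L3. In such a fit the lone library of a group is assumed to vary like the other group. ATXN7 ranked 1564th of all genes by its rise (12.3%), and ATXN7L3 ranked 2318th (18.3%).

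**Figure D2:**
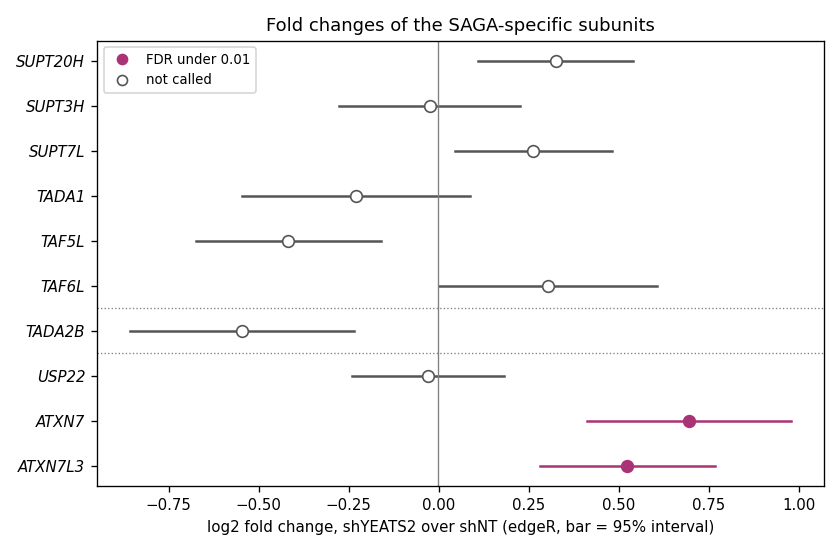
Log2 fold change, shYEATS2 over shNT, of each member with its 95% interval from the quasi-likelihood fit, grouped by module, with the median of all genes as a grey line and filled points for genes with an FDR under 0.01. ATXN7 (0.69) and ATXN7L3 (0.52) were called higher, TADA2B (−0.55) had the most negative value, and USP22 and SUPT3H lay near zero.

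Sequence overlap with other genes differed among the members. Of 50-base stretches of the canonical transcript, none was shared with another gene for ATXN7 or TADA1, and 1.95% were shared for ATXN7L3, all with TMUB2 and none with its relative ATXN7L3B. TMUB2, which overlaps ATXN7L3 on the other strand over 125 exon bases, was not called (−0.13, FDR = 0.403). For TADA2B 2.18% were shared and for TAF5L 1.12%. The highest shares were 23.9% for SUPT20H, 18.8% for SUPT7L, 17.8% for TAF6L and 14.8% for USP22. How the counting treated such reads is not stated beyond default settings, so the values of these 4 genes carry that uncertainty.

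Levels between genes were compared as RPKM, read counts scaled to the length of the canonical transcript and to the TMM-adjusted library size. USP22 was the most abundant member, at 99.5 ± 0.499 RPKM in shNT (SD, n = 2) and 97.5 ± 0.348 in shYEATS2. SUPT20H followed at 20.4 ± 0.147 in shNT, then ATXN7L3 at 13.6 ± 0.524, SUPT7L at 11.4 ± 0.217 and TADA2B at 10.5 ± 0.155. TAF5L had 9.37 ± 0.388, TADA1 8.28 ± 1.07, TAF6L 7.11 ± 0.601 and SUPT3H 6.30 ± 0.291. ATXN7 was the lowest at 3.20 ± 0.144 RPKM. Of the neighbours in this control order, only TADA1 and TAF6L overlapped between libraries.

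Within the deubiquitinase module the level of USP22 was 31.0 times that of ATXN7 in shNT and 18.8 times in shYEATS2, where ATXN7 stood at 5.18 ± 0.566 RPKM and ATXN7L3 at 19.5 ± 1.55. By its mean, TADA2B moved from the fifth to the sixth place, at 7.23 ± 1.19 RPKM, and TAF5L from the sixth to the eighth, at 7.01 ± 0.381. In the shYEATS2 libraries TADA2B (8.07 and 6.38), TADA1 (7.04 and 7.09) and TAF5L (7.28 and 6.74) overlapped, so their order there was not settled. TAF6L moved up to the fifth place at 8.78 ± 0.631. The order depends on transcript length: with the union of all annotated exons as length, USP22 was still first and ATXN7 last, SUPT20H was sixth, and the control ratio of USP22 to ATXN7 was 51.5.

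**Figure D3:**
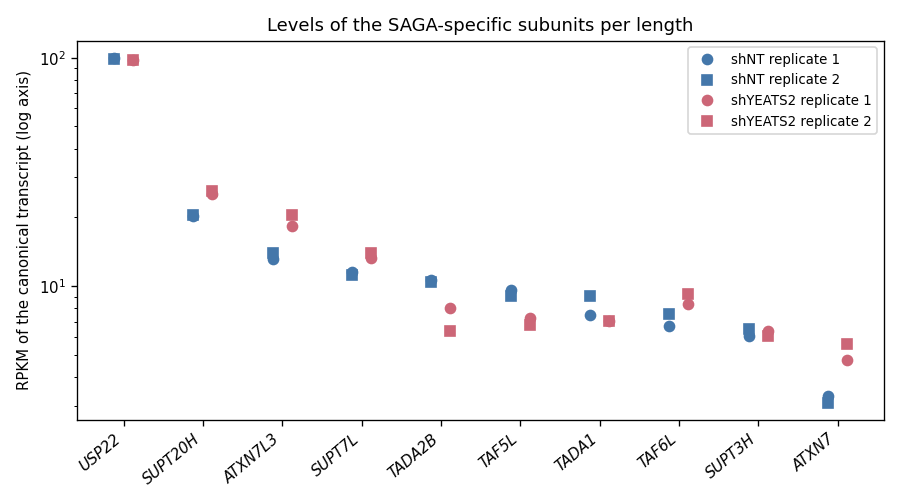
RPKM on a log axis for the 10 members, ordered by the control level, 1 point per library, blue for shNT and red for shYEATS2. USP22 was highest in every library, at 99.5 RPKM in shNT on average, and ATXN7 was lowest, at 3.20 in shNT and 5.18 in shYEATS2 on average.

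TADA2B, TAF5L and TAF6L each have a paralog that takes their place in another complex, and ATXN7L3 was compared with related genes. The ratio of a pair within a library needs no scaling between libraries. The log2 ratio of TADA2B to the ATAC adaptor TADA2A was 0.97 and 0.81 in shNT and 0.39 and 0.14 in shYEATS2. The mean ratio was 0.63 lower on the log2 scale in the knockdown libraries, while TADA2A itself had a fold change of 0.07 and was not called. TAF6L to TAF6 moved the other way, from −3.18 and −3.01 in shNT to −2.32 and −2.00 in shYEATS2, a difference of 0.93. TAF6 fell in the fit over all genes, from 4465 and 4475 scaled counts to 3076 and 2722 (−0.62, SE 0.10, FDR = 0.0039).

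For TAF5L to TAF5 the log2 ratios were 0.37 and 0.45 in shNT and 0.31 and 0.36 in shYEATS2, a difference of −0.08. ATXN7L3 to ATXN7, a pair within the deubiquitinase module, had 1.15 and 1.33 in shNT and 1.10 and 1.04 in shYEATS2, a difference of −0.17. ATXN7L3 to ATXN7L3B had −0.49 and −0.39 in shNT and −0.71 and −0.60 in shYEATS2, a difference of −0.22. The groups did not overlap for any of the 5 ratios, as was so for 79.6% of single genes. No such share was computed for ratios of other gene pairs. With 2 libraries against 2, an exact two-sided permutation test cannot go below 0.333, which each of the 5 reached before and after adjustment, so none could be called.

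**Figure D4:**
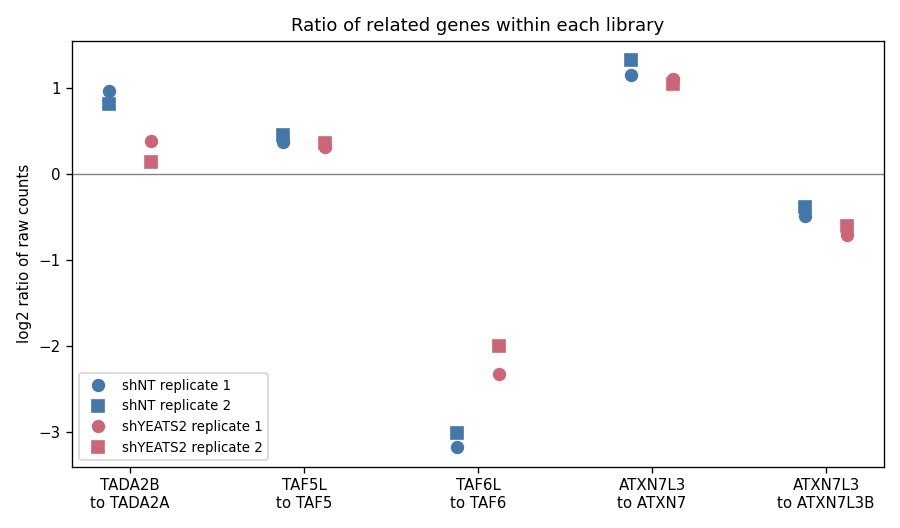
Log2 ratio of read counts (vertical axis) of 5 pairs of related genes (horizontal axis), 1 point per library, blue for shNT and red for shYEATS2. The TADA2B to TADA2A ratio was lower and the TAF6L to TAF6 ratio higher in both shYEATS2 libraries, and the other 3 differences were at most 0.22.

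Around these members, 43 related genes were tested, YEATS2 left aside, of which 7 (16.3%) were called lower, 5 (11.6%) higher and 31 in neither direction, with a median log2 fold change of −0.14. These shares lie near those of all genes, 12.5% lower and 12.9% higher. The acetyltransferase module that SAGA shares with ATAC held 4 genes. KAT2A, one of the alternative acetyltransferases, had 3269 and 3103 scaled counts in shNT and 1926 and 1194 in shYEATS2 and fell by 51.0% (−1.03, SE 0.21, FDR = 0.0079). KAT2B, the other, had 1479 and 1398 in shNT and 2019 and 2093 in shYEATS2 and rose (0.51, SE 0.09, FDR = 0.0056). TADA3 (−0.00) and SGF29 (0.01), the remaining shared adaptors, were not called.

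Of 8 subunits that SAGA shares with other complexes, 3 (37.5%) fell and none rose, with a median of −0.30, where 12.5% of all genes were called lower and 12.9% higher. They were TAF9B (−0.69, FDR = 0.0039), a TAF9 paralog, and SF3B3 (−0.66, FDR = 0.0026) and SF3B5 (−0.60, FDR = 0.0068), which also serve in the SF3B splicing complex. The activator-binding subunit TRRAP (−0.20), TAF9 (−0.37), TAF10 (−0.22), TAF12 (0.06) and ENY2 (−0.19) were not called. ATAC-specific here means an ATAC subunit that SAGA lacks, which may also serve in other complexes. The ATAC-specific list without YEATS2 had 2 of 8 members (25%) lower and none higher, against the same shares of all genes, with a median of −0.26. These were WDR5, a WD40 protein also found in histone H3K4 methyltransferase complexes, at 5873 and 5367 scaled counts in shNT and 1518 and 777 in shYEATS2 (−2.29, SE 0.28, FDR = 0.0018), and DR1, a histone-fold protein (−0.55, FDR = 0.0053). ATAC-specific TADA2A, ZZZ3 (0.22), MBIP (−0.41) and KAT14 (−0.24) were among those not called. Of 11 TFIID genes, TAF6 was the one called (9.09% lower, near the 12.5% of all genes), and the median was −0.14.

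**Figure D5:**
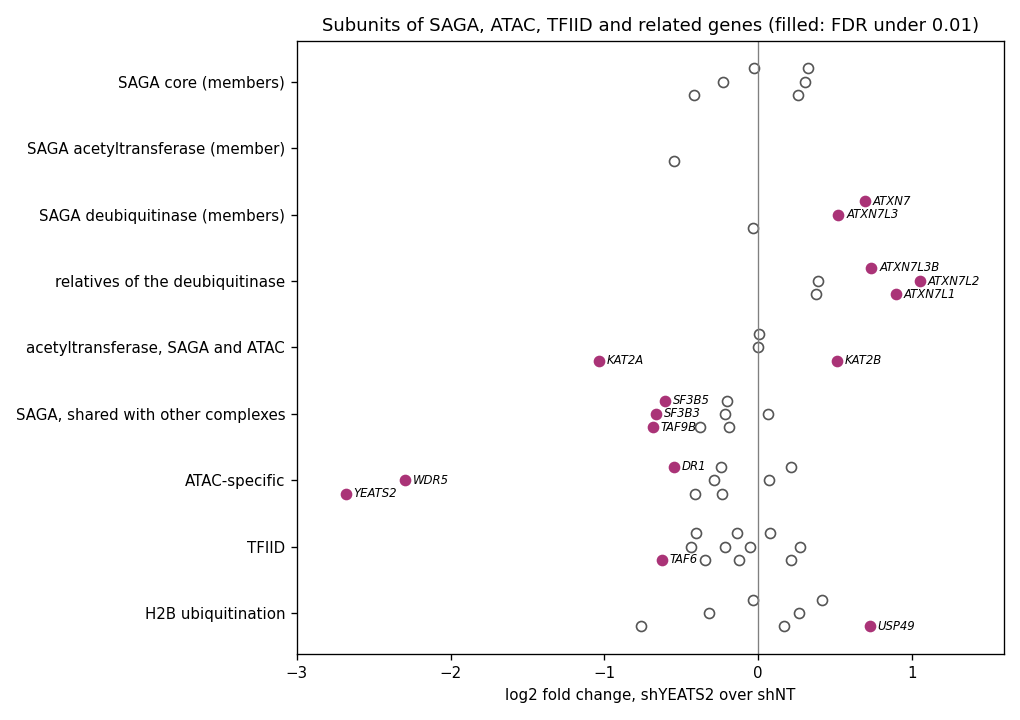
Log2 fold changes of single genes, shYEATS2 over shNT, in the SAGA-specific modules and the related lists, 1 point per gene, filled and named where the FDR was under 0.01. All 5 deubiquitinase relatives lay above zero. Calls were all lower among ATAC subunits that SAGA lacks (labelled ATAC-specific) and among SAGA subunits shared with complexes other than ATAC.

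The relatives of the deubiquitinase module were 5 genes, of which 3 rose and none fell, against 12.9% higher and 12.5% lower of all genes, with a median of 0.74. All 5 had knockdown values above the controls with no overlap, as had 39.7% of all genes. ATXN7L2, a paralog of ATXN7, had 331 and 318 scaled counts in shNT and 649 and 698 in shYEATS2 (1.05, SE 0.12, FDR = 0.0015), a mean 107% higher. ATXN7L1, the other ATXN7 paralog, had 330.32 and 374 in shNT and 579 and 732 in shYEATS2 (0.90, SE 0.16, FDR = 0.0051). ATXN7L3B, a paralog of ATXN7L3 that binds ENY2 outside SAGA, had 2673 and 2619 in shNT and 4335 and 4498 in shYEATS2 (0.74, SE 0.09, FDR = 0.0017). USP27X (0.38) and USP51 (0.39), deubiquitinases that can use ATXN7L3 and ENY2 in place of USP22, were counted in fewer than 300 reads per library and were not called. No test was made of the deubiquitinase group as a whole, and this list was chosen with earlier results of these data known.

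Among 7 genes that add or remove ubiquitin on histone H2B outside SAGA, 1 rose (14.3%, near the 12.9% of all genes) and none fell by the threshold, with a median of 0.17. It was USP49, another H2B deubiquitinase, with 813 and 728 scaled counts in shNT and 1269 and 1286 in shYEATS2 (0.73, SE 0.11, FDR = 0.0030). USP44, which removes the same mark, had 289 and 296 in shNT and 213 and 134 in shYEATS2 and was not called (−0.76, FDR = 0.0350). The ubiquitin ligases RNF20 (−0.32) and RNF40 (0.17), the conjugating enzymes UBE2A (0.26) and UBE2B (0.42) and the cofactor WAC (−0.03) were not called either.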

How the data were processed

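RNA was measured in 2 shNT and 2 shYEATS2 libraries. Per the labels, TruSeq mRNA v2 libraries were sequenced. The study names the RNA-Seq unified mapper, hg19, HTSeq at default settings and edgeR's exactTest, whereas the submitters' processing notes list TopHat2 2.0.10 and HTSeq 0.6.1p1 without assigning them to an assay. The annotation used for counting is not given in the sources used here. The authors deposited raw, unnormalized read counts for each gene. The deposited table also holds the authors' log2 fold changes and their p-value and FDR columns for the same contrast, none of which was used. Every library column was assigned by its label. ChIP-seq samples were not analysed here.

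A minimum of 10 reads in 2 or more libraries was required, and no gene of the 12676 was lost to it. The test used edgeR 4.0.16 (R 4.3.3), TMM scaling, the quasi-likelihood test and Benjamini-Hochberg adjustment over all genes, at an FDR under 0.01. Intervals of 95% use the fit's degrees of freedom. Depth was 34718921 to 39417787 reads per library, and the median SE over all genes was 0.12 on the log2 scale. Alternatives were exactTest, DESeq2 1.42.0, other scalings and filters, a replicate block, an FDR under 0.05 and each library left out. Scripts were tested on simulated data.

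Gene positions, transcript lengths and 3′ UTRs came from GENCODE v44 for GRCh37, matched to 12465 of 12676 identifiers, and promoters from RefSeq on GRCh38.p14. Named genes were the 10 members, YEATS2, the related lists' genes past the threshold, the paralog partners and other genes of those lists. Genes overlapping members were added after the data were seen. The members and lists were chosen with earlier results of these data known. The result of 1 marker gene is not reported here.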

Additional observations from a re-analysis of the deposited data

How the results depend on the processing

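SAGA-specific subunits called lower numbered 0 as reported, 2 by exactTest, 1 by DESeq2, 2 at an FDR under 0.05 and 0 to 1 with a library left out, and those called higher 2 as reported and 0 to 2 with a library left out. Related subunits called lower numbered 7 as reported, 4 with total counts, 13 at an FDR under 0.05 and 1 to 9 with a library left out, and those called higher 5 as reported and 3 to 5 with a library left out. Over all genes, 1581 were called lower and 1630 higher as reported, 2497 and 2596 by exactTest, 3011 and 3093 at an FDR under 0.05, and 850 to 2024 and 775 to 1971 with a library left out. The replicate block called 2 SAGA-specific subunits lower, TADA2B (−0.55, FDR = 0.0026) and TAF5L (FDR = 0.0065), and 11 related subunits lower, and 2715 lower and 2742 higher genes in all. Libraries with the same number deviated together (r = 0.40, across genes, which are not replicates), but 2 pairs are too few to take the numbers as pairing. The fold change of SUPT3H changed sign with total counts (0.094), without shNT replicate 2 (0.024) and without shYEATS2 replicate 2 (0.012), with a range of −0.076 to 0.024 over the libraries left out, and that of USP22 with total counts (0.090). Total counts moved the median of all genes from −0.0019 to 0.12, so both genes remained below it. The cause of the other differences was not tested. Of the values for single genes and ratios under alternatives, 135 were unchanged, 10 newly passed the threshold, 6 no longer passed it and 4 changed sign. For a gene, unchanged meant the same direction and side of the threshold. For a ratio, which has no threshold, it meant the same direction and a difference within the larger group SD of that reported. Having 2 libraries a group limits every comparison.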

Other observations

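KAT2A and KAT2B, the alternative acetyltransferases that SAGA and ATAC share, were compared within each library after their values had been seen. The log2 ratio of KAT2A to KAT2B reads was 1.14 and 1.15 in controls (shNT), against −0.07 and −0.81 after knockdown (shYEATS2). The mean ratio was 1.59 lower on the log2 scale in the knockdown libraries, and the groups did not overlap. In shYEATS2 replicate 1 the reads of the pair were nearly equal, and in replicate 2 KAT2B had more reads than KAT2A. The ratio was given no test, since it was chosen for these values.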
